A study of Homo sapiens with 4 samples.

Results

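The genes described here sense foreign RNA, carry the interferon signal or are switched on by it, and they were followed in gastric cancer cells in which a short hairpin RNA (shRNA) had lowered ACTL6A. The list holds 37 genes, chosen by name with earlier results of these data known. It takes every probe set (a group of oligonucleotide probes for 1 transcript) annotated with 1 of these symbols and no other. A total of 36 genes had such a probe set, 60 probe sets in all, out of 19775 genes on the array. STAT2 had none and was not analysed here. Of the 36 genes, 30 passed a threshold on signal and were tested among 12286 genes, with 5 RNA sensors, 4 signalling factors and 21 induced genes among them.

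RNA of SNU638, an established line grown from human gastric cancer, was read on 4 single-colour arrays. The control group, scramble (2 arrays), carried a scrambled shRNA, and the knockdown group, sh-ACTL6A (2 arrays), an shRNA against ACTL6A, an actin-related subunit of the BAF chromatin remodelling complex. The labels name a transfection with scramble RNA or sh-ACTL6A. In the paper's general methods, hairpins in the pLKO.1 vector were delivered by lentivirus and infected cells were selected with puromycin. Those methods do not name these arrays. Both groups carried a hairpin, and no cells without one are among the arrays analysed here. A response common to both hairpins would not appear in their difference. Whether 1 hairpin or several stood behind the sh-ACTL6A arrays is not in the labels, and neither is a separate culture for each array, so every p-value below refers to the spread among these 4 arrays, which may be technical.

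Double-stranded RNA in the cytoplasm is recognised by RIGI and IFIH1, which signal through the adaptor MAVS to the factors IRF3 and IRF7 and so to the interferon genes. Secreted interferon binds its receptor on the same or on neighbouring cells, and receptor-bound kinases then activate a complex of STAT proteins with IRF9, which enters the nucleus and binds the interferon-stimulated response element (ISRE). Hairpin RNAs and viral vectors can set off this pathway, so the comparison asks whether interferon genes differed between cells with the ACTL6A hairpin and cells with the scrambled one.

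The ISRE is written in the promoters of most of the list. It was searched as GAAANNGAAA or its reverse complement TTTCNNTTTC, and the interferon-gamma element GAS as TTCNNNGAA, which is its own reverse complement, from 250 bases before to 50 bases after each RefSeq gene start (build GRCh38.p14). A promoter was found for 29 of the 37 genes. An ISRE match stood in 21 of them (72.4%), against 4.38% of 27305 gene promoters in all, and a GAS match in 10 (34.5%), against 9.38% in all. The stretches below are examples picked after the values were seen. DDX60, IFIT1 and IFI6 are induced genes whose sh-ACTL6A arrays lay above the scramble arrays, ISG15, IFITM3 and MX1 are induced genes whose groups overlapped, and IRF1 and IRF9 are the signalling factors with a GAS match. Each is read 5′ to 3′ in the direction of the gene, with the motif matches in capitals.
DDX60: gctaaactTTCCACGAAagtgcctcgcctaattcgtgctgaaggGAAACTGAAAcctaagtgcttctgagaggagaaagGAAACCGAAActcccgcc
IFIT1: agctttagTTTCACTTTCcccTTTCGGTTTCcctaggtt
IFI6: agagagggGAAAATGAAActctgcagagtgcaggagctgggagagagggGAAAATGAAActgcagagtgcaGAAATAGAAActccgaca
ISG15: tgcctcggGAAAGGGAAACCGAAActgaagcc
IFITM3: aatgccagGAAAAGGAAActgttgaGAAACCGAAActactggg
MX1: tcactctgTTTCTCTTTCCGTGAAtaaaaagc
IRF1: agcctgatTTCCCCGAAatgacggc
IRF9: cacgtgatTTCTGGGAAaaggccct

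The DDX60 stretch lies at chr4:168318788-168318884 on the minus strand and holds 1 GAS match followed by 2 ISRE matches. IFIT1 has 2 ISRE matches at chr10:89392499-89392537 on the plus strand, and IFI6 has 3 at chr1:27672268-27672356 on the minus strand. In ISG15 (chr1:1013376-1013407 on the plus strand) the 2 ISRE matches overlap and form a single run of capitals. IFITM3 has 2 matches at chr11:320878-320920 on the minus strand. In the MX1 stretch (chr21:41431846-41431877 on the plus strand) an ISRE and a GAS match overlap. Another MX1 gene start, further upstream, has an ISRE match from base 12 after it, which is not printed. By role, 17 of 20 induced genes and 4 of 6 sensors had an ISRE match, while none of the 3 signalling factors with a promoter did. IRF1 (chr5:132490881-132490905 on the minus strand) and IRF9 (chr14:24161194-24161218 on the plus strand) had a GAS match instead. A match is a run of letters and does not show that a factor bound there.

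ACTL6A, the target of the hairpin, read 11.92 and 11.82 in scramble against 10.16 and 10.32 in sh-ACTL6A, and fell by 1.63 on the log2 scale (SE 0.14, limma adjusted p = 0.0408). It was the 1 gene of 12286 called, 0.00814% of those tested, and over the alternative settings the difference ran from -1.71 to -1.55 and its adjusted p from 3.02e-06 to 0.9996, which was reached without scramble replicate 1. Of the epithelial markers, EPCAM, CDH1, KRT8, KRT18, KRT19 and ELF3 were above the signal threshold of 5.63 and CLDN4 was below it. Among leukocyte markers PTPRC, CD3E, CD14 and LYZ were below the threshold and CSF1R, at a mean of 5.65, stood just above it. Of 8 fibroblast and endothelial markers, COL1A1, DCN and PECAM1 were above the threshold. The ratio of 3′ to 5′ signal, a sign of RNA quality, is given on the log2 scale with replicate 1 first. For ACTB it was 1.63 and 0.78 in scramble and 1.21 and 0.78 in sh-ACTL6A. For GAPDH it was 0.29 and 0.10 in scramble and 0.22 and 0.07 in sh-ACTL6A. Both ratios were highest on scramble replicate 1, and in each group replicate 1 stood above replicate 2.

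None of the 30 interferon genes tested was called at adjusted p under 0.05 (limma, adjusted over all genes tested, from 0.868 to 0.998). At an unadjusted p under 0.05, 1 gene was higher in sh-ACTL6A, the helicase gene DDX60, where 3.21% of all genes tested were higher at that level, and 0 were lower, where 2.30% of all genes were. The median difference, sh-ACTL6A minus scramble, was 0.13 on the log2 scale over the 30 genes and ran from -0.51 (MX2) to 0.46 (DDX60). The median of all genes tested was 0.01. In 20 of the 30 genes (66.7%) the difference was above 0, against 51.9% of all genes. Both sh-ACTL6A arrays lay above both scramble arrays in 9 of the 30 genes, where 19.3% of all genes did so, and below them in 3, where 15.4% of all genes did so. Taken apart, the sh-ACTL6A arrays gave medians of 0.10 (replicate 1) and 0.04 (replicate 2) against the scramble mean. Over all genes tested these medians were 0.03 and 0.02.

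**Figure D1:**
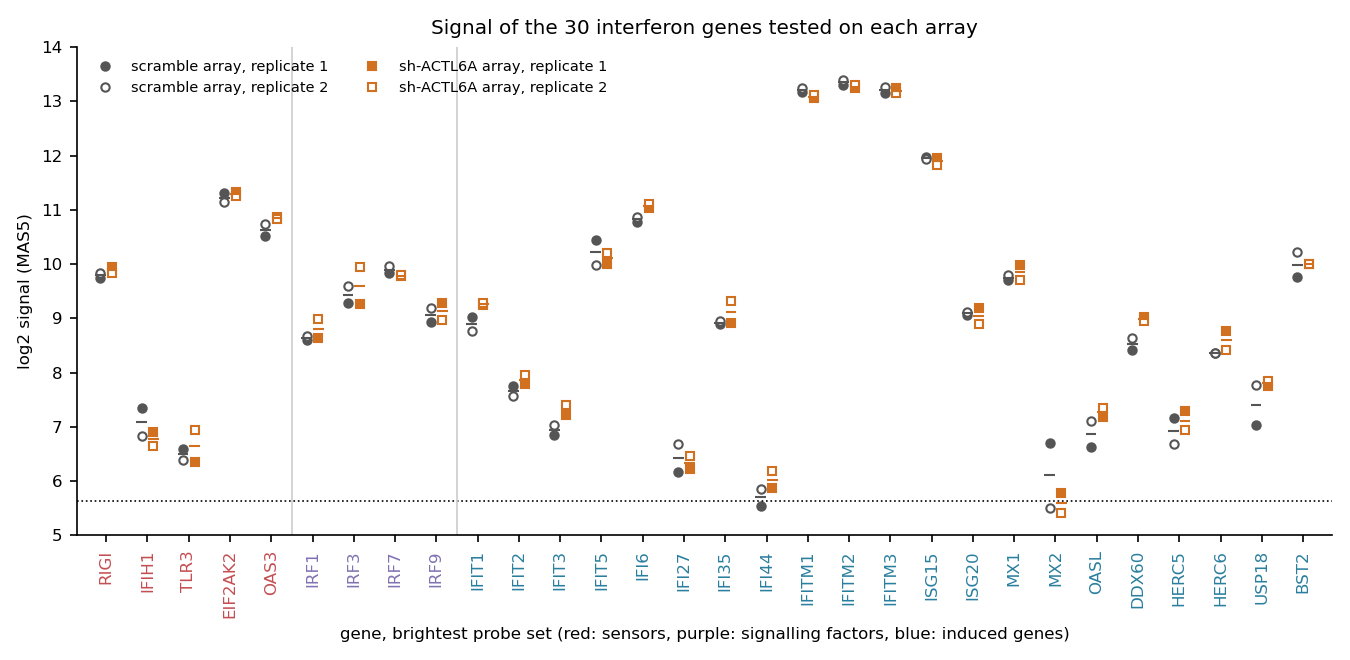
Log2 signal of the 30 genes tested on each array, with circles for scramble and squares for sh-ACTL6A (filled, replicate 1, open, replicate 2), short lines at the group means and the signal threshold of 5.63 dotted. The groups lie close together throughout, and the widest gap between a scramble pair is that of MX2, at 6.70 and 5.51.

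The median absolute difference between the group means was 0.17 for the interferon genes and 0.14 for all genes tested. Single arrays of 1 group, which vary more than means of 2 arrays, differed over the interferon genes by a median of 0.19 in scramble and 0.17 in sh-ACTL6A. No gene differed by 1 on the log2 scale, which is 2-fold. For 27 of the 30 genes the upper end of the 95% confidence interval lay below a 2-fold rise, the exceptions being IFI44, OASL and USP18. For 25 genes the whole interval lay within 2-fold in either direction. As the cells were measured in bulk, fewer cells with a transcript and less of it per cell cannot be told apart.

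The differences of the RNA sensors ran from -0.31 to 0.23 on the log2 scale. RIGI, the helicase that recognises 5′-triphosphate RNA, read 9.75 and 9.83 in scramble and 9.95 and 9.83 in sh-ACTL6A, a difference of 0.10 (SE 0.15, 95% confidence interval -0.25 to 0.46). IFIH1 (MDA5), its relative for long double-stranded RNA, read 7.35 and 6.83 in scramble and 6.91 and 6.64 in sh-ACTL6A, a difference of -0.31 (SE 0.30, interval -1.02 to 0.39). On these brightest probe sets both cytoplasmic helicases overlapped between the groups. The dimmest RIGI probe set, at 8.88 and 8.85 against 8.95 and 8.89, kept them apart (difference 0.06, SE 0.16). So did the dimmest IFIH1 one, below the signal threshold, at 5.08 and 5.34 against 5.46 and 5.97 (difference 0.50, SE 0.49). The remaining probe set of each gene overlapped. TLR3, the endosomal receptor of double-stranded RNA, read 6.59 and 6.40 against 6.36 and 6.95, where the sh-ACTL6A arrays enclosed the scramble arrays (difference 0.16, SE 0.33, interval -0.61 to 0.93). EIF2AK2 (PKR), the kinase that halts translation on binding double-stranded RNA, read 11.31 and 11.14 against 11.32 and 11.25 (difference 0.06, SE 0.13, interval -0.25 to 0.37), again with overlap.

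OAS3 belongs to the oligoadenylate synthetases, which make the messenger that activates RNase L. Its signal was 10.51 and 10.74 in scramble and 10.87 and 10.84 in sh-ACTL6A. By brightest probe set it was the 1 sensor whose sh-ACTL6A arrays both stood above the scramble arrays, by 0.23 (SE 0.15, interval -0.11 to 0.57). The limma adjusted p of the 5 sensors ran from 0.927 to 0.972 and their median difference was 0.10, with 4 above 0. The sister genes OAS1 and OAS2, its neighbours on chromosome 12, were below the signal threshold and are described with the dim probe sets.

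Among signalling factors, IRF3 and IRF7 switch on the interferon genes themselves. IRF3 read 9.28 and 9.60 in scramble and 9.26 and 9.94 in sh-ACTL6A, a difference of 0.16 (SE 0.25, interval -0.41 to 0.73). IRF7, which interferon itself induces, read 9.83 and 9.96 against 9.78 and 9.80, differing by -0.11 (SE 0.15, interval -0.46 to 0.24). By brightest probe set IRF3 overlapped between groups and IRF7 was the 1 signalling factor without overlap, on the lower side. IRF1, induced by interferon-gamma, read 8.60 and 8.67 against 8.64 and 8.98 (difference 0.18, SE 0.19, interval -0.27 to 0.62). IRF9, the DNA-binding partner of the STAT complex, read 8.93 and 9.18 against 9.29 and 8.97 (difference 0.07, SE 0.19, interval -0.38 to 0.52). For IRF1 and IRF9, which each hold a GAS match in the stretches above, the groups overlapped. The median of the 4 factors was 0.12, but it was -0.06 on sh-ACTL6A replicate 1 and 0.13 on replicate 2, so its sign rested on which array was read.

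**Figure D2:**
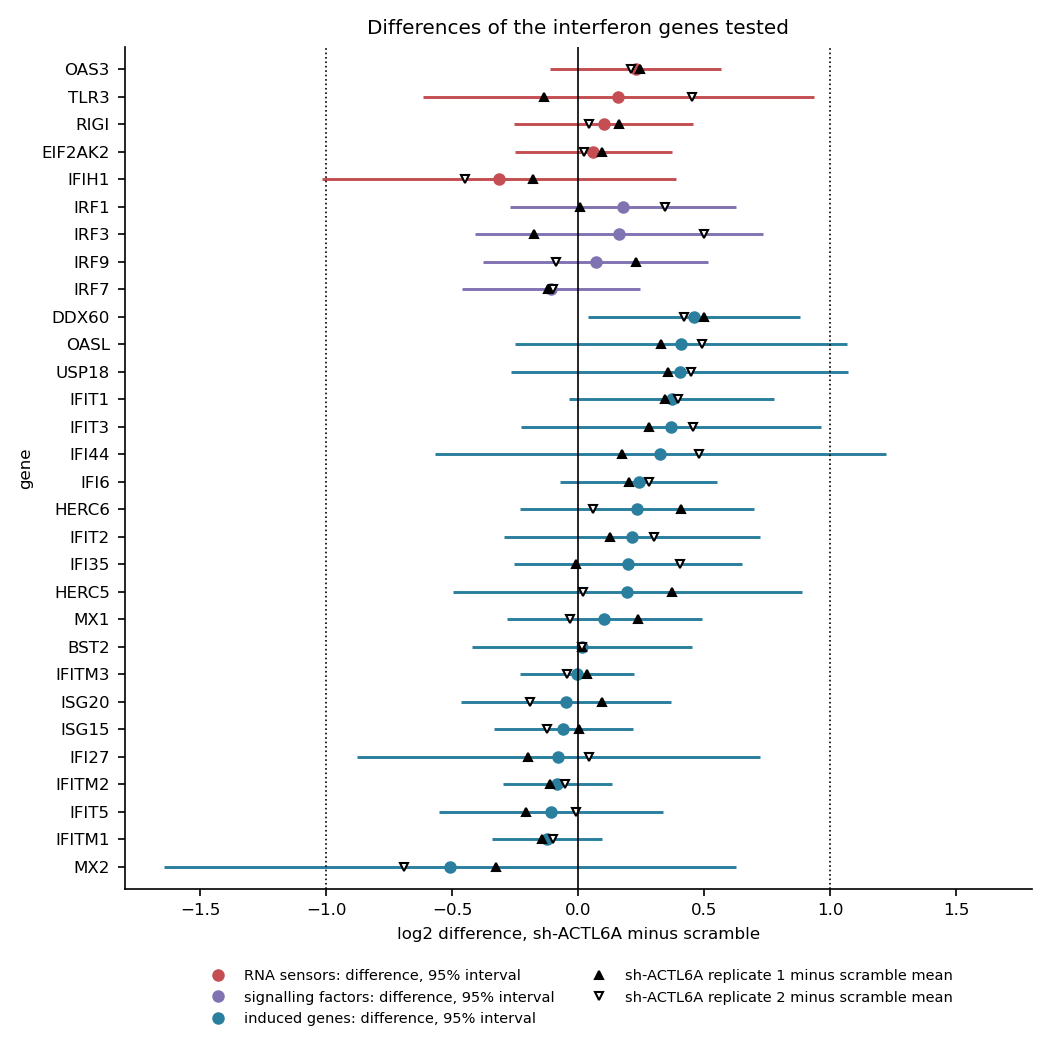
Log2 difference, sh-ACTL6A minus scramble, of each gene tested (coloured point) with its 95% confidence interval from limma, and the sh-ACTL6A arrays singly against the scramble mean (triangles); dotted lines mark a 2-fold difference. Each interval includes 0 except that of DDX60, which runs from 0.04 to 0.88.

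The induced genes spread more widely. DDX60, a helicase related to the RIGI family that promotes antiviral sensing, stood at 8.42 and 8.64 in scramble and at 9.03 and 8.95 in sh-ACTL6A. The groups were apart, and the difference of 0.46 (SE 0.18) was a 1.38-fold higher signal with an interval from 1.03 to 1.84. Its unadjusted p was 0.0358 and its limma adjusted p 0.868.

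The IFIT genes encode tetratricopeptide proteins that bind foreign RNA and block its translation, and all 4 lie in a cluster on chromosome 10. IFIT1 read 9.02 and 8.77 in scramble and 9.24 and 9.29 in sh-ACTL6A, a difference of 0.37 (SE 0.17, interval -0.04 to 0.78). IFIT3 read 6.86 and 7.03 against 7.23 and 7.40, differing by 0.37 (SE 0.26, interval -0.23 to 0.96). IFIT2, at 7.75 and 7.57 against 7.78 and 7.96, differed by 0.21 (SE 0.22, interval -0.29 to 0.72). In these 3 genes both sh-ACTL6A arrays were above both scramble arrays on the brightest probe set, as in 19.3% of all genes tested. The second probe set of IFIT2 overlapped, at 6.88 and 7.09 against 6.94 and 7.45 (difference 0.21, SE 0.30). So did that of IFIT3, at 6.90 and 6.44 against 6.66 and 6.78. IFIT5 overlapped on its brightest probe set, with 10.44 and 9.99 in scramble and 10.01 and 10.21 in sh-ACTL6A. The difference there was -0.11 (SE 0.19, interval -0.55 to 0.34). Its other probe set, at 8.36 and 8.30 against 8.46 and 8.43, was higher in sh-ACTL6A without overlap (difference 0.12, SE 0.18). As the mean of its probe sets IFIT5 differed by 0.0052. The limma adjusted p was 0.917 for IFIT1 and at least 0.930 for the other members of the family.

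The IFITM genes, a cluster on chromosome 11 whose membrane proteins hinder virus entry, were bright and tight. IFITM1 read 13.17 and 13.25 in scramble and 13.07 and 13.11 in sh-ACTL6A, a difference of -0.12 (SE 0.09, interval -0.34 to 0.10). IFITM2 read 13.30 and 13.40 against 13.24 and 13.30 and differed by -0.08 (SE 0.09, interval -0.30 to 0.13). In both of these the sh-ACTL6A arrays were the lower ones. IFITM3, at 13.15 and 13.26 against 13.24 and 13.16, differed by -0.01 (SE 0.10, interval -0.23 to 0.22), and its sign turned with quantile normalisation (0.03) and with median centring (0.03). The family is near-identical in sequence. Its probe sets carry a suffix of probes shared between transcripts (x_at for IFITM2 and IFITM3, s_at for IFITM1), so their signals are not independent. The brightest RIGI probe set carries the x_at suffix too, and those of IRF7, IFIT5, IFI35, IFI44, ISG15 and DDX60 carry s_at. The medians were 0.29 over the IFIT genes and -0.08 over the IFITM genes, a contrast chosen after the values were seen and not tested.

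ISG15, the ubiquitin-like modifier that is among the most strongly induced interferon targets, read 11.97 and 11.93 in scramble and 11.96 and 11.83 in sh-ACTL6A. The difference was -0.06 (SE 0.12), and on the fold scale its interval ran from 0.79 to 1.16. USP18, the protease that removes ISG15 and damps receptor signalling, read 7.04 and 7.77 against 7.76 and 7.85, differing by 0.40 (SE 0.29, interval -0.27 to 1.07) that rested on the low reading of scramble replicate 1. Without that array it was 0.04. HERC5, the ligase that attaches ISG15, read 7.16 and 6.68 against 7.29 and 6.94 (difference 0.19, SE 0.30, interval -0.50 to 0.89). Its neighbour and relative HERC6 read 8.36 and 8.37 against 8.77 and 8.42 (difference 0.23, SE 0.20, interval -0.23 to 0.70). Of these 4 genes of the ISG15 system, HERC6 alone had groups that did not overlap.

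MX1 and MX2 are dynamin-like GTPases that trap viral nucleocapsids and lie next to each other on chromosome 21. MX1 read 9.70 and 9.79 in scramble and 9.99 and 9.71 in sh-ACTL6A, a difference of 0.10 (SE 0.17, interval -0.28 to 0.49). MX2 read 6.70 and 5.51 against 5.78 and 5.41, differing by -0.51 (SE 0.49, interval -1.64 to 0.62). Both overlapped, and the MX2 value was -1.10 without scramble replicate 2 and 0.08 without scramble replicate 1. OASL, an OAS relative that enhances RIGI signalling, read 6.63 and 7.11 against 7.19 and 7.35, with the sh-ACTL6A arrays above (difference 0.41, SE 0.28, interval -0.25 to 1.07). BST2 (tetherin), which holds budding virions at the cell surface, read 9.76 and 10.22 against 10.00 and 10.01. The sh-ACTL6A arrays of BST2 lay between the scramble arrays, and the difference was 0.01 (SE 0.19, interval -0.42 to 0.45).

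IFI6, a mitochondrial and endoplasmic reticulum protein that opposes apoptosis, read 10.78 and 10.87 in scramble and 11.03 and 11.10 in sh-ACTL6A. The sh-ACTL6A arrays were above by 0.24 (SE 0.13, interval -0.07 to 0.55, limma adjusted p = 0.918). IFI44, at 5.55 and 5.86 against 5.88 and 6.18, also did not overlap (difference 0.33, SE 0.39, interval -0.57 to 1.22), although it lies near the signal threshold. IFI35, at 8.89 and 8.95 against 8.91 and 9.32, differed by 0.20 (SE 0.20, interval -0.26 to 0.65). IFI27, at 6.17 and 6.68 against 6.22 and 6.47, differed by -0.08 (SE 0.34, interval -0.88 to 0.72). ISG20, an exonuclease that degrades single-stranded RNA, read 9.06 and 9.12 against 9.19 and 8.90 and differed by -0.05 (SE 0.18, interval -0.47 to 0.37). The last 3 overlapped between groups. In all, 13 of the 21 induced genes tested were above 0 and 8 below, with a median of 0.19, which was 0.13 on sh-ACTL6A replicate 1 and 0.04 on replicate 2.

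**Figure D3:**
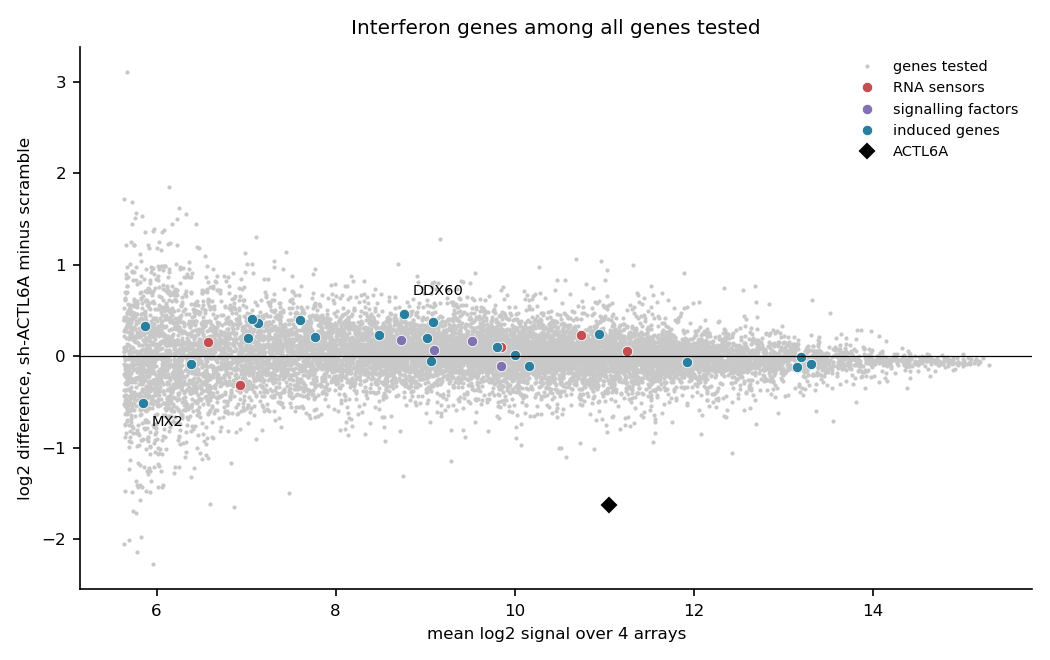
Log2 difference against mean log2 signal for all 12286 genes tested (grey), the interferon genes by role (colours) and ACTL6A (diamond). ACTL6A, at -1.63 and a mean of 11.06, is the lowest of the genes at or above the 75th percentile of signal (8.62). Genes below that percentile run from -2.28 to 3.11. The interferon genes lie within the cloud of genes of like signal.

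The median difference was larger among the dimmer genes, a contrast that was not tested. Split at the 75th percentile of signal (8.62), the 19 brighter interferon genes had a median difference of 0.07 and the 11 dimmer ones 0.21. The split was clearer among induced genes, where the 12 brighter ones had a median of 0.0045, with 6 above and 6 below 0, and 7 of the 9 dimmer ones were above 0, with a median of 0.23. Over all genes tested the medians were 0.0041 and 0.02. The 18 genes tested that had an ISRE match had a median of 0.08, and the 5 with a promoter but no match 0.18. Across both sh-ACTL6A arrays, 15 genes were above the scramble mean on each, 6 were below on each and 9 had opposite signs.

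Further probe sets gave a second reading of 18 genes. Over all 60 probe sets, 0 were called by limma among 54613 tested, where 0% of all probe sets were called, with adjusted p from 0.960 to 0.999, and at an unadjusted p under 0.05, 2 were higher, where 2.35% of all probe sets were, and 2 lower, where 2.65% were. The groups did not overlap with sh-ACTL6A above in 17 of the 60 (16.7% of all probe sets did so) and below in 7 (17.1% of all). In 9 genes several probe sets were above the threshold, and they gave the same sign in 6 and opposite signs in EIF2AK2, IFIH1 and IFIT5. The second probe set of OASL, at 6.61 and 7.03 against 7.21 and 7.15, kept the groups apart (difference 0.36, SE 0.29). That of IRF1 read 7.27 and 7.48 against 7.60 and 7.97 and did so too (difference 0.41, SE 0.25), unlike its brightest probe set. The second IFIT3 probe set differed by 0.05 (SE 0.33), with overlap. As the mean of all probe sets IRF1 differed by 0.29 and IFIT3 by 0.21.

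All differences of 1 or more fell in dim probe sets. There were 8 of them among the 60, and each was below the signal threshold. The median SE was 0.19 for the 41 probe sets at or above the threshold and 0.93 for the 19 below it. OAS1, an oligoadenylate synthetase like OAS3, was below the threshold in both of its probe sets. Its brighter one read 5.13 and 4.21 in scramble and 2.55 and 2.94 in sh-ACTL6A, a difference of -1.93 (SE 0.80, limma adjusted p = 0.960), and its other one differed by 0.25 (SE 1.02). The dim second probe sets of OAS3 and HERC6 were both lower in sh-ACTL6A, by -2.15 (SE 0.83) and -1.78 (SE 0.94), against positive values of their bright ones. A dim IFI44 probe set read 3.96 and 1.83 in scramble and 5.56 and 4.79 in sh-ACTL6A, higher by 2.28 (SE 0.94), and a dim TLR3 one read 4.79 and 3.70 against 5.26 and 6.30, higher by 1.54 (SE 0.69). These probe sets thus pointed both ways, within genes as well as between them.

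The remaining genes were read only by dim probe sets. XAF1, a proapoptotic partner of XIAP, read 5.63 and 5.89 in scramble and 5.66 and 2.13 in sh-ACTL6A on its brightest one, where a single low array gave the difference of -1.87 (SE 1.13). Its dimmest probe set read 4.50 and 4.55 against -0.11 and 3.91, differing by -2.63 (SE 1.37). Here replicate 1 was the low one, so the XAF1 probe sets disagreed on which array was low. IFI44L, next to IFI44 on chromosome 1, read -0.36 and 2.06 against 0.24 and 3.99 (difference 1.26, SE 1.49). RSAD2 (viperin), an enzyme that makes a chain-terminating nucleotide, read 4.31 and 4.81 against 4.70 and 4.82 (difference 0.20, SE 0.62). On their brightest probe sets OAS2 differed by 0.09 (SE 0.63) and SAMD9, an antiviral factor that restricts poxviruses, by 0.10 (SE 0.48), both with overlap. Further OAS2 probe sets differed by -0.81 (SE 0.90) and -0.34 (SE 1.20), also with overlap. The second SAMD9 one read 3.91 and 3.88 against 4.01 and 5.18, without overlap (difference 0.70, SE 0.75).

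**Figure D4:**
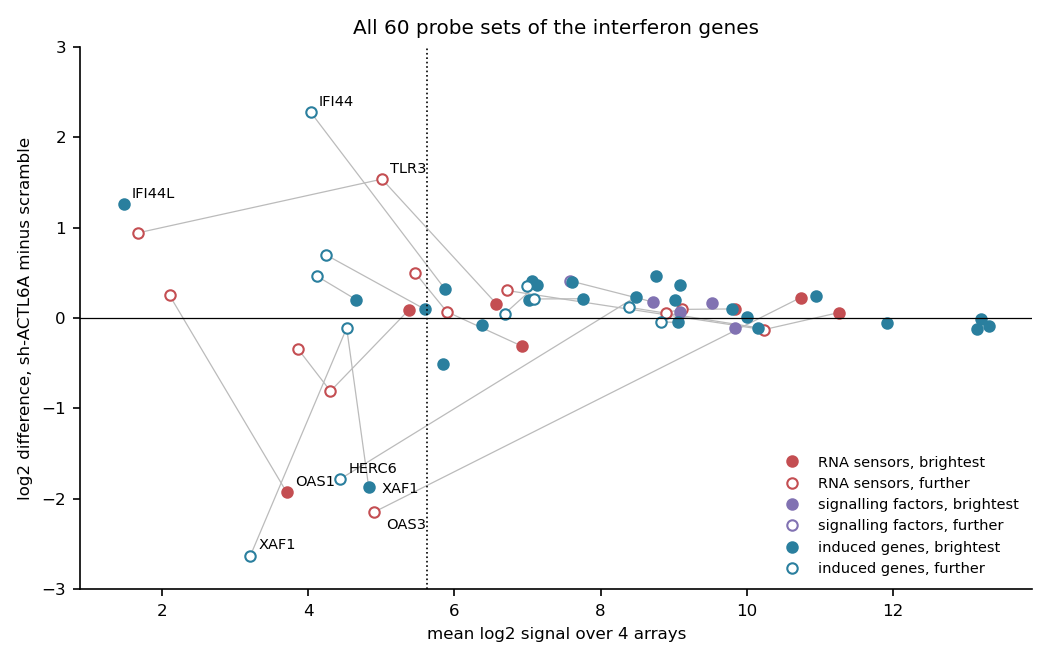
Log2 difference against mean log2 signal for all 60 probe sets of the interferon genes, filled for the brightest of a gene and open for further ones, with lines joining those of 1 gene and the signal threshold of 5.63 dotted. Differences of 1 or more, labelled by gene, all lie left of the threshold.

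The rest of the pathway was read from lists of 96 genes, of which 64 were tested. No gene of these was called (limma adjusted p from 0.630 to 0.9999), and the median difference was 0.05. At an unadjusted p under 0.05, 4 of the 64 were higher, where 3.21% of all genes were, and 1 was lower, where 2.30% were. Of 10 interferon genes listed, IFNL2 and IFNE passed the threshold and differed by -0.14 (SE 0.43) and -0.02 (SE 0.32), so neither was measured higher. All 6 receptor chains were tested and 5 were below 0. IFNAR1, a chain of the type I receptor, read 9.68 and 9.58 in scramble and 8.78 and 9.31 in sh-ACTL6A, lower on both arrays by -0.58 (SE 0.21, limma adjusted p = 0.851), but by -0.19 as the mean of its probe sets. IFNGR1 of the type II receptor differed by -0.27 (SE 0.12). Of the receptor kinases JAK1 differed by -0.16 (SE 0.12) and TYK2 by 0.15 (SE 0.16).

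Below the sensors, 8 of 9 adaptors and kinases were above 0, with a median of 0.07. TICAM1, the adaptor of TLR3, differed by 0.29 (SE 0.24), and TRAF3, the ligase that links MAVS to the kinase TBK1, by -0.55 (SE 0.29). The TRAF3 value came from sh-ACTL6A replicate 2, at 9.62 against 10.58 on replicate 1. The DNA sensor CGAS differed by 0.23 (SE 0.18). Among 10 genes that process double-stranded RNA and hairpins, DICER1, the nuclease that cuts hairpins into small RNAs, read 10.78 and 10.63 in scramble and 11.18 and 11.37 in sh-ACTL6A, a difference of 0.56 (SE 0.14, unadjusted p = 0.00493, limma adjusted p = 0.630). Its cofactor TARBP2 differed by 0.26 (SE 0.19), and the list had a median of 0.07. The groups were apart for both DICER1 and TARBP2, with sh-ACTL6A above.

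Of 5 negative regulators tested, 4 were below 0 and 1 above, with a median of -0.05. IRF2, which competes with IRF1 for DNA, differed by 0.47 (SE 0.19, limma adjusted p = 0.872), and SOCS3, which blocks the receptor kinases, by -0.62 (SE 0.32), of which sh-ACTL6A replicate 1 gave the larger share with 8.17 against 9.24 on replicate 2. Of 28 further induced genes tested, 18 were above 0, with a median of 0.07. DDX60L, the neighbour and paralogue of DDX60 on chromosome 4, read 10.84 and 10.67 in scramble and 11.17 and 11.43 in sh-ACTL6A, a difference of 0.55 (SE 0.15, limma adjusted p = 0.691). Both genes of this pair thus had sh-ACTL6A arrays above the scramble arrays, and whether their probe sets pick up each other's transcript was not tested. MOV10, an RNA helicase, differed by 0.37 (SE 0.16). As the mean of all probe sets, DICER1 differed by 0.29, DDX60L by 0.27, TRAF3 by -0.26 and MOV10 by 0.72. With 1 array left out the values moved. Without sh-ACTL6A replicate 1, TRAF3 differed by -1.04, DICER1 by 0.66 and DDX60L by 0.67. Without sh-ACTL6A replicate 2, IFNAR1 differed by -0.85 and SOCS3 by -1.15. Each was 1 of the 2 genes of smallest unadjusted p in its list, and the other pathway genes were not read in these fits. As 1 array is left in a group, calls of pathway genes at adjusted p under 0.05 are left out. No gene of the interferon list passed in any of these fits.

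**Figure D5:**
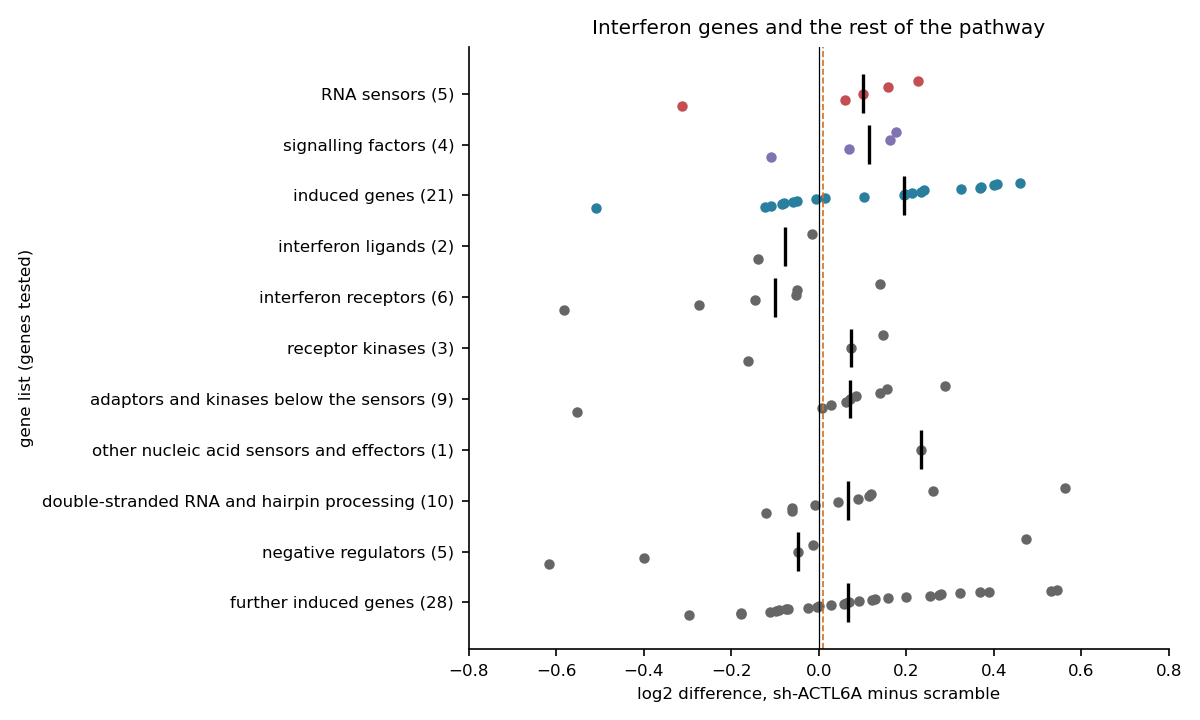
Log2 difference of each gene tested, by list, with black bars at the list medians, a solid line at 0 and a dashed line at the median of all genes tested (0.01). The induced genes have a median of 0.19 and the interferon receptors one of -0.10, and every gene shown lies within 0.62 of 0.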

How the data were processed

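The data were single-colour Affymetrix signals of SNU638 cells with a scrambled shRNA (2 arrays) or an shRNA against ACTL6A (2 arrays), grouped by the labels. The deposited values are log2 signals of 54675 probe sets, made by the authors with MAS5 according to the submitters' processing notes (version not given in the sources used here). Linear signals had a trimmed mean (2% at each end) of 500.0 on every array, and median log2 signals were 5.70 to 5.83. MAS5 scales each array as a whole and treats probe sets singly, so dim probe sets vary widely between arrays.

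Of 54613 non-control probe sets, 41091 had 1 symbol in the platform's table, 1801 several and 11721 none. A pair of probe sets naming a listed gene together with another gene was left out. A gene was read from its brightest probe set and tested if the mean reached the 50th percentile (5.63). Differences were tested 2-sided with limma 3.58.1 in R 4.3.3 (lmFit, eBayes with trend, 7.65 degrees of freedom) and Benjamini-Hochberg adjustment over 12286 genes; 2 arrays per group limit the precision. The fit was tested on simulated data. Every listed gene was named, with ACTL6A and the 2 genes of smallest p per pathway list. The genes and lists were chosen with earlier results of these data known.

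As alternatives, each array was left out in turn, arrays were quantile normalised or centred on the median, the filter was dropped or raised to the 75th percentile, probe sets were averaged or all tested, 16 was added to the linear signal, the trend was dropped, a replicate block was fitted, and the methods' t-test was run.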

Additional observations from a re-analysis of the deposited data

How the results depend on the processing

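None of the 30 interferon genes was called under any alternative run; their lowest adjusted p was 0.215 (limma), without sh-ACTL6A replicate 1. Over all genes, 1 was called as reported, 0 after quantile normalisation, with no filter, without the intensity trend, by the methods' t-test and with every probe set, and 0 to 401 with 1 array left out. With the replicate block 2 genes were called, none of them an interferon gene. The labels do not say whether replicate numbers pair the arrays. Deviations of same-numbered arrays correlated at 0.0565 over 12286 genes and at 0.344 over the 30 interferon genes. The 3′ to 5′ ratios of ACTB and GAPDH were higher on replicate 1 in both groups, and the main fit held no replicate term. With 2 pairs a pairing cannot be established.

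The median of the interferon genes was 0.069 with the stricter filter, 0.082 as the mean of all probe sets and 0.042 to 0.16 with 1 array left out. For induced genes these were 0.0045, 0.059 and 0.043 to 0.18. The median of signalling factors ran from -0.056 to 0.20 with 1 array left out.

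Of 377 values of single interferon genes, 353 kept their sign. Signs turned for IFITM3 (0.029) and BST2 (-0.014) after quantile normalisation, for IFITM3 (0.026) and IFNE (0.016) with median centring, and as the mean of all probe sets for IFIH1 (0.086), OAS3 (-0.96), IFIT5 (0.0052) and HERC6 (-0.77). With 1 array left out, values crossed 0 for 14 interferon genes. These ran from -0.13 to 0.45 for TLR3, -0.024 to 0.14 for EIF2AK2, -0.18 to 0.50 for IRF3, -0.090 to 0.23 for IRF9, -0.33 to 0.12 for IFIT5, -0.34 to 0.18 for IFI27, -0.0079 to 0.40 for IFI35, -0.063 to 0.051 for IFITM3, -0.12 to 0.0038 for ISG15, -0.19 to 0.10 for ISG20, -0.033 to 0.24 for MX1, -1.10 to 0.082 for MX2, -0.046 to 0.44 for HERC5 and -0.22 to 0.25 for BST2. IFNE ran from -0.30 to 0.27 and IFNL2 from -0.45 to 0.17. A further 12 interferon genes kept their sign but moved by over 1.5 times. These ran from 0.042 to 0.16 for RIGI, -0.57 to -0.054 for IFIH1, 0.12 to 0.34 for OAS3, 0.0066 to 0.35 for IRF1, -0.17 to -0.046 for IRF7, 0.25 to 0.49 for IFIT1, 0.13 to 0.30 for IFIT2, 0.17 to 0.48 for IFI44, -0.13 to -0.036 for IFITM2, 0.17 to 0.65 for OASL, 0.059 to 0.41 for HERC6 and 0.036 to 0.77 for USP18. A lone array was assumed to vary like the other group. The cause of these moves was not tested.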
